A study of Mus musculus with 7 samples.

Results

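Promoter-proximal PU.1 sites are described here, that is, ChIP-Seq peaks of PU.1 whose centre lay within 1 kb of a transcription start site (TSS) of a protein-coding gene on chromosomes 1 to 19 and X of mm9. They were found by measuring each peak centre against every TSS of every protein-coding gene. Of 225031 PU.1 peaks on these chromosomes, 30824 met the rule, and the deposited lists of the whole study held 239001 peaks in 7 lists. The promoter-proximal peaks numbered 9910 in myeloid precursors (MPs), 10093 after 36 h of RANKL and 10821 in osteoclasts (OCs). Merging overlapping peaks of the 3 lists gave 102260 loci, of which 13902 were promoter-proximal.

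All libraries came from C57BLACK6 mice of 4 to 6 weeks. Flushed bone marrow cells were grown for 3 days with 50 ng/ml CSF1 and are the MPs, and 36 or 72 h of 100 ng/ml RANKL gave the intermediate cells and the OCs. PU.1 and MITF were each precipitated at the 3 times with 5 µg of antibody, and an IgG control was taken from MPs. Each of the 7 conditions had 1 library, so no difference between times has a replicate check and every interval below covers counting error only. The cultures are bulk, so a change in the share of bound cells and a change of binding per cell cannot be told apart. No RNA was measured in these files, and the cell labels could not be checked against expressed markers.

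PU.1 is an ETS family factor that specifies macrophages and the OCs derived from them. It binds a purine-rich DNA element around the core GGAA and acts from both enhancers and promoters. Many myeloid promoters lack a TATA box and a CpG island and carry PU.1 sites close to the TSS. Housekeeping promoters are by contrast mostly rich in CpG and often carry sites for other ETS factors. MITF is a basic helix-loop-helix factor that acts with PU.1 at genes of bone resorption and of the lysosome.

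The sequences under the highest promoter-proximal peaks in OCs are printed first, as examples of strong sites. Whole peaks are given where no annotated exon lies in the peak, otherwise 30 bases around the motif nearest the centre. All are on the plus strand of mm9. Capitals mark GAGGAAGT on either strand, or GGAAGT on either strand where the longer motif is absent. Among the runs of this paragraph, those at Mid1 and Zkscan17 lack the longer motif. The OC peak at Cd53, a leukocyte tetraspanin, covers the TSS and the run shown is chr3:106593043-106593072. The peak at Tbc1d14 lay in an intron 752 bp past the TSS, at chr5:36905878-36906028. The runs at Cd300lf, an inhibitory myeloid receptor (chr11:114995288-114995317), Mid1 (chrX:166410936-166410965) and Slc23a2, a vitamin C transporter (chr2:131920350-131920379) come from within 150 bp of a TSS. The peak upstream of Zkscan17, chr11:59340360-59340510, was added because it held one of the 5 highest MITF scores at OC.
Cd53: gcgagaagagtGAGGAAGTgagactgagtg
Tbc1d14: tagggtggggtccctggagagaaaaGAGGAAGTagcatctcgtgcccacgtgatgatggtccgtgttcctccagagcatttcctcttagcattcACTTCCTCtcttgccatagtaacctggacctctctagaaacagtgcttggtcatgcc
Cd300lf: tctcactcggcACTTCCTCctttagccact
Mid1: tcccaggggttcACTTCCgctttcttttaa
Slc23a2: tgggtaagatcACTTCCTCaggaaccgagg
Zkscan17: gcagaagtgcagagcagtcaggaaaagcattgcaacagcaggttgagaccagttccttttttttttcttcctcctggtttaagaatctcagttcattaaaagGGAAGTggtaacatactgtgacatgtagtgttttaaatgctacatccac

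Further runs come from loci with the largest or smallest ratio of the OC score to the MP score, and serve as examples of weaker sites. The ratio was largest at Zfp119a (chr17:56018208-56018358) and at Bclaf1 (chr10:20032266-20032295) among others. It was among the smallest at Chst3 (chr10:59682759-59682909), whose peak holds neither motif, and at Nipa2 (chr7:63217083-63217112).
Zfp119a: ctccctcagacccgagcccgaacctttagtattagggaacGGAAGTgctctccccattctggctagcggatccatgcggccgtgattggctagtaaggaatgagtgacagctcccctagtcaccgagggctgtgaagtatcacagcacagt
Bclaf1: acgccccaagtcGGAAGTgacggagccgag
Chst3: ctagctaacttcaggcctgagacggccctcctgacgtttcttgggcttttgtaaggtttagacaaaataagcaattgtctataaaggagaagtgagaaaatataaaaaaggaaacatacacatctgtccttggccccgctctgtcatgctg
Nipa2: tcaaatctcagACTTCCTCttttaacttta

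The 5 highest promoter-proximal peaks were at the same 5 genes in each list. The score of a peak is the number of sequenced tags in it, scaled to a common library size. The highest at MP was Tbc1d14, with scores of 383.8 at MP, 332.6 at 36 h and 321.6 at OC, or 225 and 219 tags at MP and OC. Cd53 had scores of 371.9, 306.0 and 326.0 at the 3 times. Mid1 had 377.0, 317.8 and 304.0, Slc23a2 had 341.2, 317.8 and 298.1, and Cd300lf had 327.5, 323.7 and 312.8. Each score of these 5 genes was highest at MP. The OC to MP ratio lay between 0.806 at Mid1 and 0.955 at Cd300lf, and none of the 5 pairs passed the tag test of OC against MP described below, where the lowest adjusted p of the exact binomial test was 0.598.

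The first question was how much of the PU.1 cistrome lay at promoters at each time. Promoter-proximal peaks made up 13.01% of the MP list (95% Wilson interval 12.8 to 13.3), 14.0% of the 36 h list (13.8 to 14.3) and 14.1% of the OC list (13.8 to 14.3). The share at 36 h exceeded that at MP by 1.03 percentage points (Newcombe interval 0.681 to 1.38). The share at OC exceeded that at 36 h by 0.0129 points (-0.341 to 0.366), which is within counting error. Expressed by gene, 7894, 8304 and 8469 of 22350 protein-coding genes had at least 1 promoter-proximal peak at MP, 36 h and OC, and 6683 genes had one in all 3 lists. A peak lay within the window of several genes in 9.5 to 9.75% of cases, so that such a gene pair shares the peak.

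Within the window the peaks were concentrated at the TSS itself. Upstream positions held 58.0% of the MP peaks (57.0 to 58.9), 57.3% of the 36 h peaks and 58.0% of the OC peaks. The 100 bp upstream of the TSS alone held 21.3%, 22.4% and 22.6% of the promoter-proximal peaks, and the 100 bp downstream held 9.73%, 11.2% and 10.2%. The plot of peak position shows the same profile in all 3 lists, with a maximum in the 50 bp before the TSS. The peak centre fell in an annotated UTR in 15.2% to 17.0% of the promoter-proximal peaks, against 1.66% to 1.69% of the peaks farther out. The rule cuts a continuous distribution. In OCs 571 peaks lay 900 to 1000 bp from a TSS, with a median score of 25.0, and 517 lay in the next 100 bp outwards, with a median score of 26.4. At MP the medians inside and outside were 25.6 and 23.9, and at 36 h both were 23.7.

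**Figure D1:**
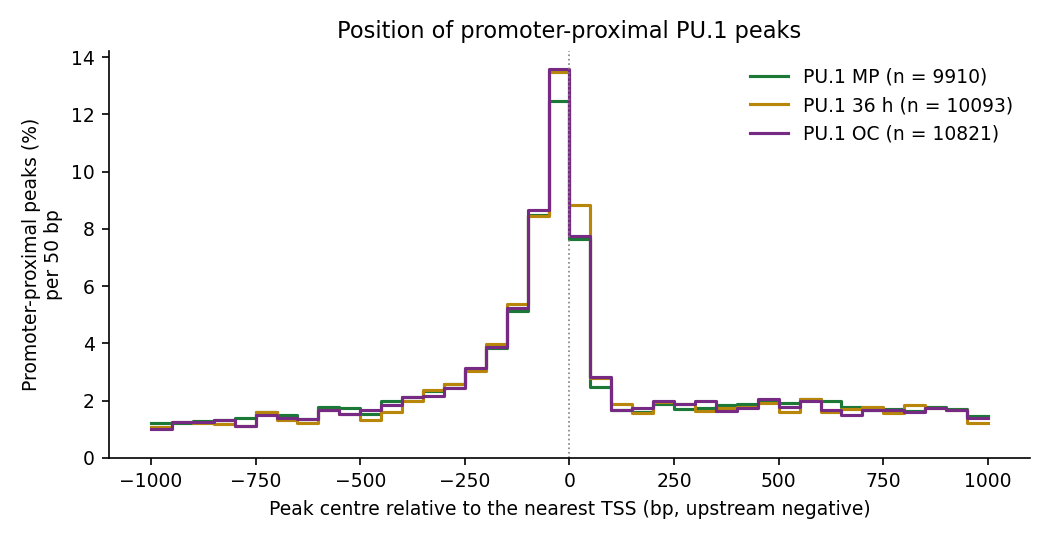
Position of promoter-proximal PU.1 peak centres relative to the nearest TSS (bp, upstream negative), as the percentage of the promoter-proximal peaks of each list per 50 bp. The 3 lists (MP, 36 h, OC) overlay each other, and the 100 bp just upstream of the TSS hold 21.3 to 22.6% of the peaks.

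Promoter-proximal peaks were slightly lower than peaks farther out. The median score was 22.2 at MP against 23.9 farther out, 22.2 against 23.7 at 36 h and 22.0 against 23.5 at OC, a difference of 1 tag in each list. The upper end differed more. Peaks with at least 60 tags made up 6.95% of promoter-proximal peaks at MP against 10.1% farther out, a difference of -3.10 points (-3.63 to -2.53). The same shares were 7.86% and 10.2% at 36 h, and 8.39% and 11.5% at OC. Among distance classes in OCs the median tag number was 16 within 100 bp of the TSS, 15 from 100 to 500 bp and 18 from 1 to 3 kb. Peaks more than 100 kb from a TSS were lower than all of these, with a median of 14 tags.

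The DNA under the promoter-proximal peaks differed from that under the other peaks. A CpG count of 5 or more in the 151 bp around the centre was found in 45.5%, 50.7% and 50.1% of the promoter-proximal peaks at MP, 36 h and OC. Farther out this held for 5.68%, 6.35% and 6.01%, and among windows at the outermost TSS of all protein-coding genes it held for 60.9%. The PU.1 motif GAGGAAGT, searched on both strands, was present in 14.5% of the promoter-proximal peaks at MP (13.8 to 15.2) against 23.3% farther out. The shares were 14.0% and 23.9% at 36 h and 14.0% and 23.7% at OC, and 1.85% of all TSS windows of the same length held the motif. At equal GC content the odds ratio of promoter-proximal against farther peaks was 0.560 (0.527 to 0.595) at MP and 0.554 (0.523 to 0.588) at OC.

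Motifs common at promoters in general went the other way. CCGGAAGT, a longer form of GGAAGT bound by several ETS factors, was in 4.08%, 4.78% and 4.54% of the promoter-proximal peaks and in 0.479% to 0.511% of the farther peaks, against 3.78% of TSS windows. GGGCGG, the GC box bound by SP factors, was in 18.1%, 21.1% and 20.8% of the promoter-proximal peaks and in 2.34% to 2.74% of the farther peaks. TSS windows held it in 35.3% of cases. The shorter GGAAGT, which occurs within the first 2 of these motifs, was in 53.0 to 54.0% of promoter-proximal and 61.2 to 62.6% of farther peaks, and in 15.1% of TSS windows.

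**Figure D2:**
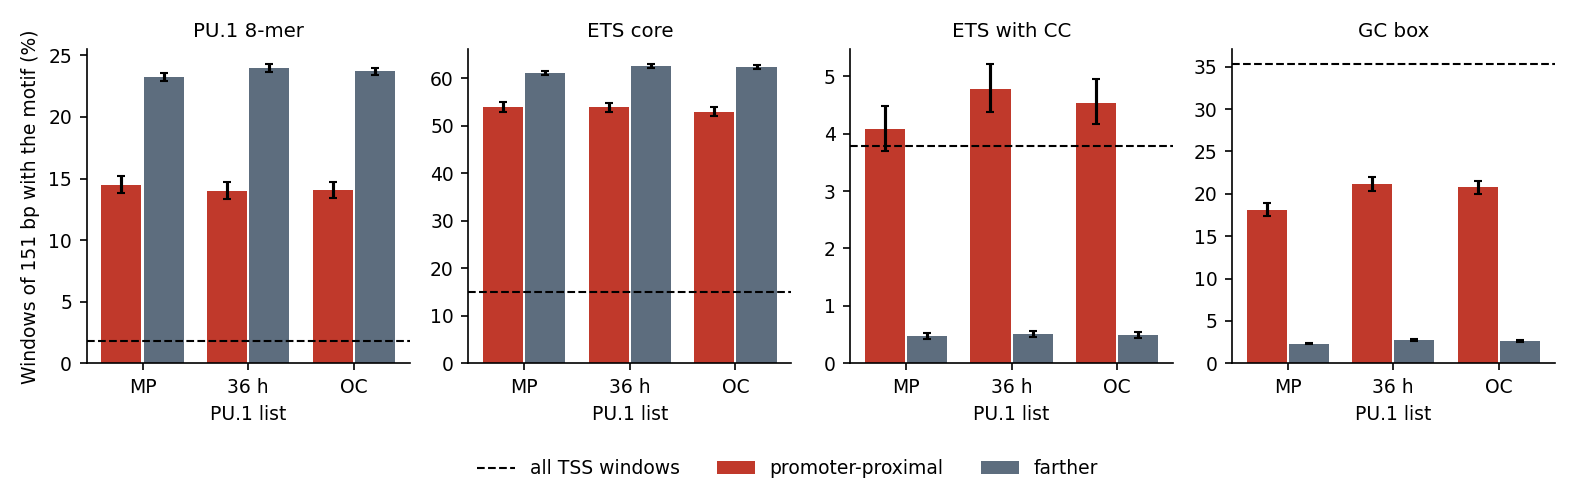
Percentage of 151 bp windows around PU.1 peak centres that hold a motif on either strand, for promoter-proximal and farther peaks of each list with 95% Wilson intervals. From left to right the panels show GAGGAAGT (PU.1 8-mer), GGAAGT (ETS core), CCGGAAGT (ETS with CC) and GGGCGG (GC box), and the dashed line is the share of all protein-coding TSS windows. The first pair is more frequent farther out and the second pair at promoters.

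The difference in GAGGAAGT depended on peak height. Among OC peaks with 63 to 243 tags, 35.5% of promoter-proximal (32.3 to 38.8, n = 820) and 34.6% of farther peaks held it. Among OC peaks with 7 tags, the lowest in the list, 7.65% of promoter-proximal peaks (6.16 to 9.48, n = 993) held it against 21.0% farther out. The same contrast was found at MP, where the lowest class gave 7.72% against 21.5% and the highest 36.1% against 34.2%. The median OC score of promoter-proximal peaks with GAGGAAGT was 36.7, against 22.0 without it. The CCGGAAGT and GGGCGG peaks were at the low end, with median OC scores of 19.1 and 20.6. Among high peaks the share with the PU.1 motif differed from that of high peaks elsewhere by less than counting error, and among low peaks it was smaller at promoters.

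The second question was how long a promoter-proximal site was held through differentiation. Peaks of different times were matched where their intervals had 1 bp or more in common. Of the promoter-proximal MP peaks, 77.8% had a peak at 36 h and 81.9% at OC, against 73.3% and 78.4% of the MP peaks farther out. Of the promoter-proximal OC peaks, 75.1% had a peak at MP, against 78.5% farther out. Because tall peaks are shared more often, peaks were compared at an equal tag number. The odds ratio of promoter-proximal against farther peaks was 1.49 (1.41 to 1.58) from MP to 36 h and 1.45 (1.36 to 1.54) from MP to OC. In the reverse direction it was 0.810 (0.764 to 0.859) from 36 h to MP and 0.808 (0.765 to 0.855) from OC to MP. In these libraries MP promoter peaks had a later peak more often, and OC promoter peaks had an MP peak less often, than equally tall peaks elsewhere.

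Between 36 h and OC the differences were small. From 36 h to OC the odds ratio was 1.04 (0.979 to 1.11), and a reciprocal overlap of 50% or the stricter score threshold turned it to 0.938 and 0.893, while centres within 500 bp raised it to 1.22 (1.14 to 1.30). From OC to 36 h it was 1.13 (1.07 to 1.19), and the interval no longer excluded 1 with a reciprocal overlap of 50% (1.04, 0.984 to 1.09) or with equal tags and CpG class (1.01, 0.954 to 1.08). The difference across the tag range is shown in the plot of overlap at equal tag number. MP peaks of 7 to 8 tags had an OC peak in 63.6% of promoter-proximal cases (61.2 to 65.8) and 52.7% of the others, whereas those of 58 tags or more were shared in 99.6% and 99.7%.

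The CpG content of the peak moved with this asymmetry. Promoter-proximal MP peaks with 5 or more CpG had an odds ratio of 1.67 (1.48 to 1.89) for a 36 h peak and 1.60 (1.40 to 1.82) for an OC peak, against farther peaks of the same CpG class. With fewer CpG the values were 1.09 (1.01 to 1.17) and 1.09 (1.0 to 1.18). From OC to MP the odds ratio was 0.745 (0.665 to 0.835) with 5 or more CpG and 0.967 (0.892 to 1.05) with fewer. The split by CpG was chosen after the data had been seen. The PU.1 MP library is the least deep of the 3, with 1 tag worth 1.71 score units against 1.48 at 36 h and 1.47 at OC, and its promoter-proximal peaks also had the lowest GC content. At equal tag number and CpG class together, the odds ratios moved toward 1, to 1.22 (1.15 to 1.30) from MP to 36 h, 1.21 (1.13 to 1.30) from MP to OC, 0.928 (0.866 to 0.993) from 36 h to MP and 0.885 (0.829 to 0.944) from OC to MP. With lists of equal length they were 1.47, 1.47, 0.771 and 0.795. The part of sequencing depth itself was not tested.

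**Figure D3:**
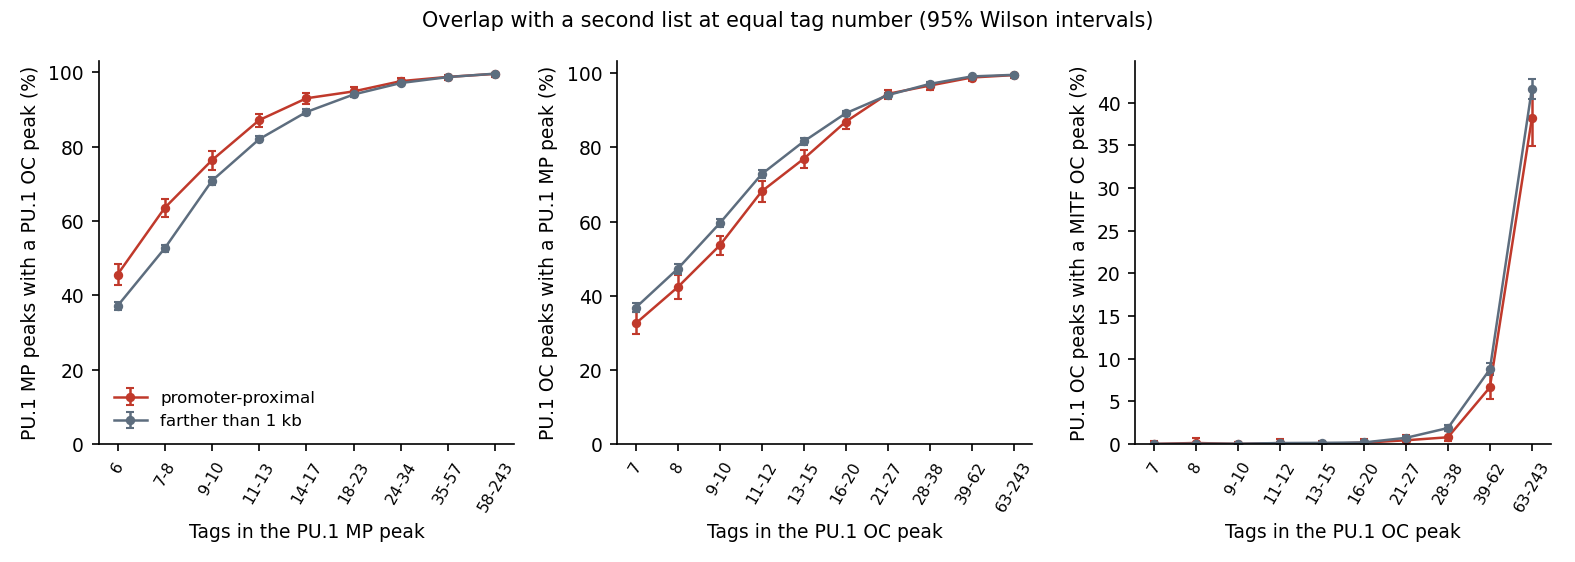
Percentage of peaks that overlap a peak of a second list, by the number of tags in the peak, for promoter-proximal and farther peaks with 95% Wilson intervals. In the left panel (MP peaks with an OC peak) promoter-proximal peaks lie above the others at low tag numbers, in the middle panel (OC peaks with an MP peak) they lie below, and in the right panel (OC peaks with a MITF OC peak) overlap is near 0 up to 20 tags and 38.2% and 41.6% in the highest class.

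Over the 13902 promoter-proximal loci, 7172 or 51.6% (50.8 to 52.4) were called at all 3 times, against 50.4% of the loci farther out. The pattern called at 36 h and OC but not at MP held 8.06% of promoter-proximal loci against 5.88% farther out, a difference of 2.19 points (1.72 to 2.68). The pattern called at MP alone held 8.43% against 11.5%, a difference of -3.11 points (-3.61 to -2.59). Promoter-proximal loci of the 36 h and OC pattern had a mean of 5 or more CpG in 64.7% of cases, those called at all 3 times in 45.5% and those called at MP alone in 38.0%. GGGCGG was found in 33.6% of the 36 h and OC loci (30.9 to 36.5), where it could lie in the window of either peak. It was in 20.5% of the MP and 36 h loci and 17.9% of the MP and OC loci. Loci called at all 3 times held it in 22.3% of cases. Among loci called in 1 list, with fewer windows to search, it was found in 12.7% at MP, 21.3% at 36 h and 21.6% at OC.

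**Figure D4:**
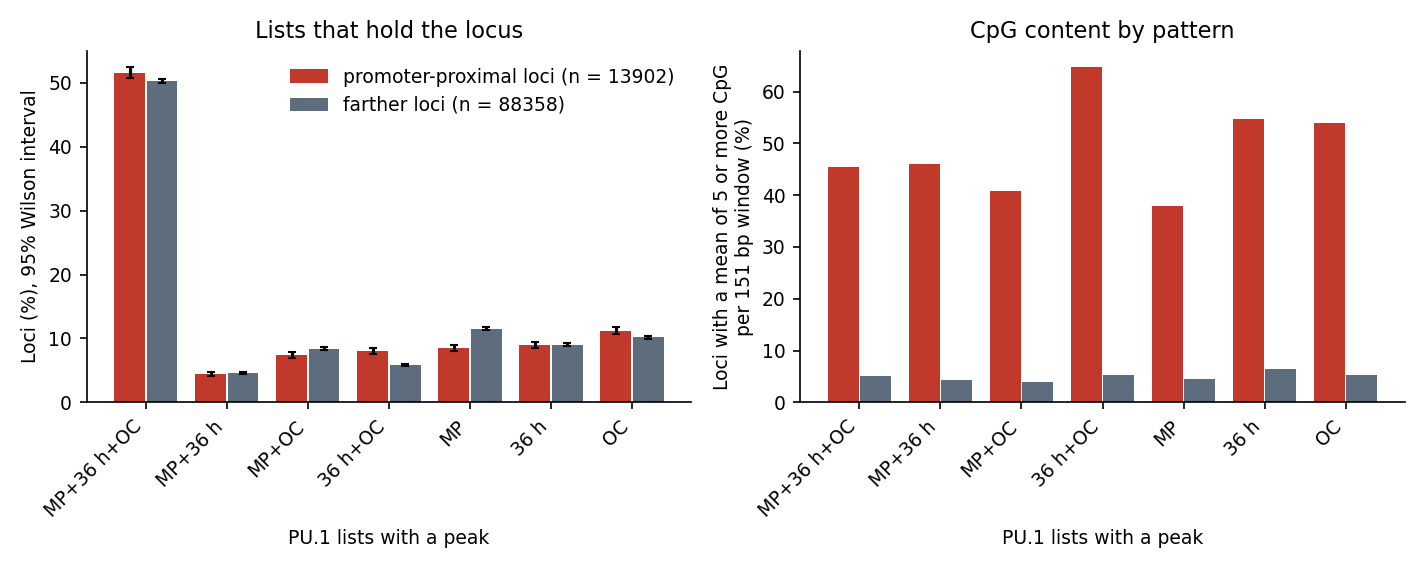
Left, percentage of promoter-proximal and farther loci by the PU.1 lists that hold them, with 95% Wilson intervals. Right, percentage of the loci of each pattern with a mean of 5 or more CpG per 151 bp window. The 36 h and OC pattern is more frequent at promoters (8.06% against 5.88%) and has the highest CpG share (64.7%), and the MP pattern is less frequent (8.43% against 11.5%).

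Loci missing from a list were low peaks for the most part, and most of the tallest had a neighbouring call. The median highest score was 11.7 to 11.9 for promoter-proximal loci of 1 list, near the lowest scores of 10.2 to 10.3, and 38.2 for those of all 3 lists. At Pold4, which encodes a subunit of DNA polymerase delta, an MP peak with a score of 192.8 lay at -229 bp relative to the TSS. A peak with scores of 155.2 at 36 h and 168.9 at OC lay 38 bp downstream, with its OC centre 267 bp from that of the MP peak. At Grn, the gene of progranulin, MP and OC peaks (104.1 and 118.9) lay 262 and 272 bp from the centre of a 36 h peak (113.8). Sp100, Gpr35, Snx29 and Mdh1 showed the same arrangement, with centres 152 to 362 bp apart.

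A count of such neighbours was added after seeing these loci. Of the promoter-proximal loci of the single-list patterns with a score of at least 60, a peak of both other lists lay within 500 bp of the centre in 5 of 7 at MP, 5 of 5 at 36 h and 9 of 9 at OC. Among loci of 2 lists with such a score, a peak of the missing list lay as near in 6 of 6 (MP and 36 h), 25 of 31 (MP and OC) and 3 of 5 (36 h and OC). Neighbouring calls were also common at farther loci of such a score. There the single-list counts were 36 of 52, 20 of 23 and 25 of 31, and those of 2 lists were 30 of 42, 137 of 211 and 39 of 53. Over all heights a peak of both other lists lay as near in 14.7% (MP), 7.77% (36 h) and 12.7% (OC) of the single-list loci, against 5.99%, 3.93% and 5.94% farther out. Counting a centre within 500 bp as a call raised the share of promoter-proximal loci held at all 3 times to 58.4%, and that of farther loci to 53.8%. An exception among the named loci was Mcl1, an anti-apoptotic BCL2 family gene. Its promoter peak scored 69.5 at 36 h and 54.3 at OC, and the nearest MP peak lay 3258 bp away.

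At loci called at all 3 times the median promoter-proximal score rose slightly at both steps. The median farther out fell from MP to 36 h and rose again to OC. The median score was 29.0 at MP, 31.0 at 36 h and 32.3 at OC for 7172 promoter-proximal loci, and 35.8, 32.5 and 35.2 for 44495 loci farther out. Most single loci did not follow the median. Of the promoter-proximal loci, 19.35% rose at both steps, 12.84% fell at both and 34.27% were highest at 36 h. Farther out the shares were 14.1%, 16.83% and 22.54%. The tags of overlapping peak pairs were tested with an exact binomial test against the median tag ratio, and p values were adjusted by the Benjamini-Hochberg method over every pair. This compares the libraries, not the conditions. Between MP and 36 h, 39 of 7748 promoter-proximal pairs passed an adjusted p of 0.05 and a 2-fold change, which is 0.503% (0.368 to 0.687) against 1.05% of all pairs tested. Of these, 23 were higher at 36 h and 16 lower, whereas over all pairs 191 passed as higher and 401 as lower.

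Changes of 2-fold or more at promoters were mostly upward from MP to either later list, and mostly downward from 36 h to OC. Ignoring the test, 5.80% of promoter-proximal pairs were at least 2-fold higher at 36 h than at MP, against 4.01% of all pairs, and 1.30% were at least 2-fold lower, against 3.41% of all pairs. From 36 h to OC, 1.1% were at least 2-fold higher (1.97% of all pairs) and 2.57% lower (2.61% of all pairs). From MP to OC, 3.71% were higher (2.99% of all pairs) and 1.15% lower (2.38% of all pairs). The median log2 change of promoter-proximal pairs, relative to the median of all pairs, was 0.17 from MP to 36 h, -0.08 from 36 h to OC and 0.10 from MP to OC. For farther pairs the medians were -0.04, 0.01 and -0.02. Peaks of the 36 h list are 190 bp wide and those of the other lists 150 bp, so values against 36 h also compare windows of unequal width. The MP and OC peaks are equally wide.

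Among the promoter-proximal pairs that rose between MP and 36 h were Rel, a subunit of NF-κB, from a score of 39.2 to 84.3 (adjusted p = 0.0390), and Birc3, an inhibitor of apoptosis downstream of NF-κB, from 68.2 to 128.6 (adjusted p = 0.0174, both exact binomial test). Amn1 rose from 78.5 to 164.1, Tmcc2 from 13.6 to 59.1, and Fabp1 from 46.1 to 100.5. Those that fell included Itgb5, the integrin β5 subunit, from 95.5 to 25.1 (adjusted p = 0.00109 in the same exact test), Samhd1, a dNTP hydrolase, from 216.6 to 90.2, and Usf1, a basic helix-loop-helix factor, from 155.2 to 47.3. Ehd4 fell from 170.6 to 65.0 and Kynu from 112.6 to 37.0. These pairs were singled out after their values had been seen.

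After 36 h few pairs passed. From 36 h to OC, 4 of 8276 promoter-proximal pairs passed, against 0.0707% of all pairs (13 higher and 28 lower). All 4 promoter-proximal pairs were lower at OC. They were Prss22 (149.3 to 57.3), Synpo (63.6 to 16.2), Cpne2 (112.3 to 52.9) and Hyal1, a hyaluronidase (159.6 to 69.0). From MP to OC, 2 of 8157 passed, against 0.155% of all pairs (40 higher and 53 lower). Both promoter-proximal pairs were lower. One was a peak 908 bp upstream of Cd40, a TNF receptor family member (110.9 to 45.5, adjusted p = 0.0319), and the other lay at Nipa2 (80.2 to 26.4, adjusted p = 0.0308, both exact binomial test). An unadjusted p under 0.05 in the exact test was found in 382 of 8276 promoter-proximal pairs from 36 h to OC. Over all pairs it was found in 3728 of 57958. From MP to OC the counts were 480 of 8157 and, over all pairs, 4702 of 60040. With the stricter score threshold 6 pairs passed from MP to OC.

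Among the 4658 promoter-proximal loci with at least 30 tags in MP and OC together, the ratio of the OC score to the MP score had a median of 1.05, and 90% of loci lay between 0.65 and 1.8. The largest ratio was 4.32 at Phf21a, which encodes a histone reader, with scores of 10.2 at MP, 16.3 at 36 h and 44.1 at OC. Zfp119a had 10.2, 14.8 and 38.2, AI480653 had 13.6, 31.0 and 44.1, and Bclaf1 had 11.9, 26.6 and 38.2. Each of these increased at both steps. The smallest ratios were 0.297 at Chst3 (49.5, 25.1 and 14.7), 0.310 at Rcbtb2 (42.6, 14.8 and 13.2), 0.327 at Mtf2 (49.5, 41.4 and 16.2), 0.329 at Nipa2 (80.2, 38.4 and 26.4) and 0.337 at Gab3 (39.2, 16.3 and 13.2), and all decreased at both steps. Of these loci, chosen for their ratios, Nipa2 alone passed the test, and the other adjusted p values of the exact test were 0.0796 or higher.

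The third question was how often MITF was found at the same sites. A MITF peak of the same time overlapped 527 of the 9910 promoter-proximal PU.1 peaks at MP, or 5.32% (4.89 to 5.78), against 7.20% farther out. At 36 h it overlapped 3.11% (2.79 to 3.47) against 4.86%, and at OC 3.7% (3.36 to 4.07) against 5.66%. At equal PU.1 tags the odds ratio of promoter-proximal against farther peaks was 1.0 (0.887 to 1.13) at MP, 0.708 (0.618 to 0.812) at 36 h and 0.80 (0.707 to 0.905) at OC. When both lists were cut to the stricter score, the OC interval no longer excluded 1 (0.834, 0.650 to 1.07). No promoter-proximal PU.1 peak overlapped an IgG peak.

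MITF calls lay on the tallest PU.1 peaks. The median PU.1 score of promoter-proximal peaks with MITF was 139.9 at MP, 141.2 at 36 h and 131.4 at OC, and without MITF it was 20.5, 22.2 and 22.0. At OC, 313 of the 820 promoter-proximal peaks with 63 or more tags overlapped a MITF peak, and 0 of the 993 with 7 tags did, which allows a share of up to 0.385% (Wilson). Conversely, 98.7%, 93.1% and 97.1% of the promoter-proximal MITF peaks had a PU.1 peak of the same time. GAGGAAGT was present in 33.8% of promoter-proximal OC peaks with MITF (29.3 to 38.5) and in 13.3% of those without. The E-box CACGTG, a binding site of MITF, was in 2.0% with MITF and 3.99% without, a difference of -1.99 points (-3.05 to -0.0619), and 4.52% of all TSS windows held it. At MP and 36 h the differences were -1.38 points (-2.48 to 0.367) and -0.679 points (-2.27 to 2.01). The variant CATGTG was in 9.75% with MITF and 6.41% without, a difference of 3.34 points (0.758 to 6.67), with 5.20% of TSS windows. For CATGTG the differences were 1.54 points (-0.626 to 4.28) at MP and 3.41 points (0.585 to 7.19) at 36 h. These motif shares were not matched on the height of the PU.1 peak.

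In all, 727 promoter-proximal loci overlapped a MITF peak at some time, 170 of them at all 3 times and 213 at MP alone. Of all promoter-proximal loci 94.8% overlapped none, against 92.7% of farther loci. Of the loci with MITF, 23.4% had it at all 3 times and 29.3% at MP alone, against 28.3% and 27.8% of the 6412 farther loci with MITF. The highest MITF scores at OC were at Tbc1d14 (68.6 at MP, 264.8 at 36 h and 86.8 at OC), Cd53 (37.4, 101.2 and 50.2), Cd300lf (41.6, 191.8 and 48.0), Zkscan17 (45.7, 92.5 and 46.8) and Slc23a2 (35.3, 126.5 and 41.1). All 5 had their highest MITF score at 36 h, where the PU.1 score was not the highest. The MITF 36 h list contains peaks of 150 to 1387 bp and the other MITF lists only peaks of 150 bp, so MITF scores at 36 h are not on the same footing as the others.

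Gene classes differed in how many of their promoters had a PU.1 peak. At OC the share was 37.9% of all protein-coding genes, 95.2% of the genes of phagocyte receptors and signalling (40 of 42), 88.1% of lysosomal genes (37 of 42), 84.6% of proteasome subunits (33 of 39) and 74.7% of cytosolic ribosomal proteins (62 of 83). It was 1.56% of olfactory receptors (17 of 1087), 3.13% of keratins (3 of 96), 7.69% of Hox genes (3 of 39), 20.5% of receptors and channels of neurons (9 of 44) and 36.4% of T and NK cell genes (8 of 22). The classes were chosen with results of these data known, and their shares are a description. The plot of gene classes gives all 18 with their intervals.

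**Figure D5:**
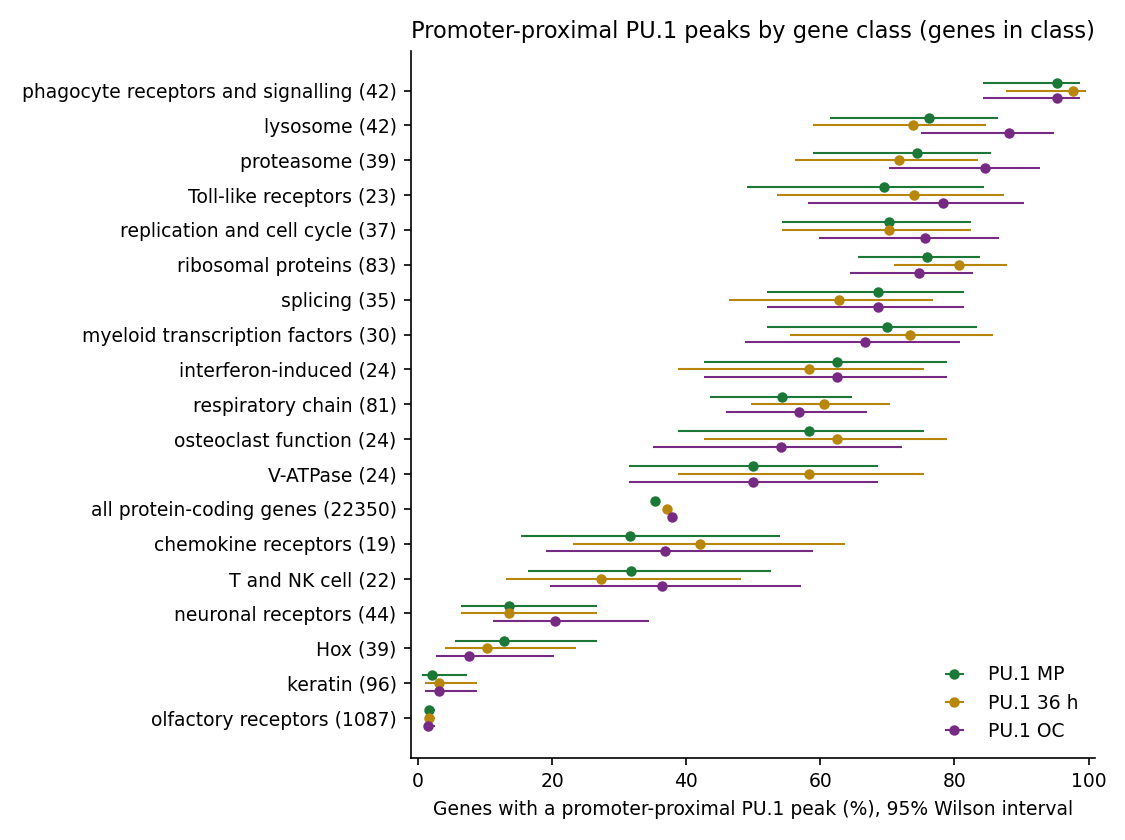
Percentage of the genes of each class with at least 1 promoter-proximal PU.1 peak in the MP, 36 h and OC lists, with 95% Wilson intervals. The number of genes is in parentheses and all protein-coding genes are shown for comparison (35.3 to 37.9%). Phagocyte genes lie highest (95.2 to 97.6%) and olfactory receptors lowest (1.56 to 1.66%).

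Classes with similar shares differed in peak height and in CpG content. The median of the highest OC score per gene was 88.1 for phagocyte genes with a peak, 45.5 for lysosomal genes, 27.9 for ribosomal proteins, 22.0 for proteasome subunits and 26.4 for all genes with a peak. The TSS window held 5 or more CpG in 35.7% of phagocyte genes, 92.8% of ribosomal proteins, 87.2% of proteasome subunits and 60.9% of all genes. High OC scores among housekeeping classes were 167.4 at Rpl18, 116.0 at Psma5, 82.2 at Ndufb9 and 70.5 at Sf3b5, a splicing factor. Their MP and 36 h scores were 133.1 and 165.6, 117.7 and 130.1, 73.3 and 91.6, and 47.8 and 72.4. Among ribosomal protein promoters, Rps12 had a pair that passed the test, from 23.9 at MP to 60.6 at 36 h (adjusted p = 0.0470, exact binomial test).

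The phagocyte list had the highest median score of the 18 classes. Its highest gene at OC was Fcer1g, below Tlr6, Tlr4, E2f1, Zkscan17 and the 5 highest promoter peaks, among others. Fcer1g, the Fc receptor γ chain, had scores of 245.6, 208.4 and 210.0 at MP, 36 h and OC. Ncf4, a subunit of the NADPH oxidase, had 177.4, 212.9 and 199.7, and Trem2, a receptor that signals through DAP12, had 218.3, 189.2 and 182.1. Mrc1, the mannose receptor, had 85.3, 72.4 and 126.3. Csf1r, the receptor of CSF1, had 107.5, 81.3 and 74.9. Itgax and Cyba had a promoter-proximal peak at 36 h only (32.5 and 29.6). A MITF peak was found at 12 of the 40 phagocyte genes with a PU.1 peak at OC, and at 399 of the 8469 such genes in all, or 4.71%. These shares were not matched on PU.1 height, and the median highest OC score was 88.1 for phagocyte genes and 26.4 for all genes with a peak. Of all promoter-proximal OC peaks with 63 or more tags, 38.2% overlapped a MITF peak. Among Toll-like receptors and their adaptors 18 of 23 had a peak at OC, or 78.3% against 37.9% of all protein-coding genes. Tlr6 (293.4, 270.5 and 251.1), Tlr4 (225.2, 209.9 and 217.3) and Tlr9 (216.6, 178.9 and 173.3) were the highest, while Tlr2 and Tlr7 had none in any list.

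Of 24 genes of OC function, 13 had a promoter-proximal peak at OC, 14 at MP and 15 at 36 h. The OC share was 54.2% (35.1 to 72.1), against 37.9% of all protein-coding genes. The other 11 all had a PU.1 peak farther out at OC to which they were the nearest gene within 100 kb. Of all protein-coding genes, 31.9% had only a farther peak at OC and 30.2% had neither. Tcirg1, the a3 subunit of the proton pump of the ruffled border, was highest with 127.9, 127.1 and 141.0, and Itgav, the integrin αv subunit, had 66.5, 84.3 and 88.1. Ostm1, the partner of the chloride channel, had 61.4, 47.3 and 52.9, and Clcn7, that channel, had 27.3, 37.0 and 26.4. Ccr1, a chemokine receptor, had 42.6, 48.8 and 36.7. Tnfrsf11a, the receptor of RANKL, had 10.2, 17.7 and 26.4. Dcstamp, listed as Tm7sf4 and needed for cell fusion, had 39.2, 65.0 and 35.2. Ocstamp, listed as 4833422F24Rik, had no peak at MP and scores of 50.3 at 36 h and 13.2 at OC.

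The remaining OC genes were low or without a call. Mmp9, a gelatinase, had a peak at OC only (27.9). Ctsk, the collagenase of the resorption pit, had a peak at MP only (20.5), and Acp5, the tartrate-resistant phosphatase, had 10.2 and 11.8 at MP and 36 h and none at OC. Scin, an actin-severing protein, had 15.4 and 20.7 at the same times. Atp6v0d2, a pump subunit used in fusion, had a peak at 36 h only (11.8). Tfrc (15.4, 14.8 and 16.2), Lif (20.5, 28.1 and 16.2), Snx10 (25.6, 20.7 and 20.6) and Plekhm1 (11.9, 16.3 and 13.2) were low in all 3 lists. Oscar, Itgb3, Ppargc1b, Src, Calcr, Car2 and Pstpip1 had no promoter-proximal peak at any time. Scores near 10 lie at the lowest value of the lists, so a peak present in 1 list and absent in the next can differ by 1 tag.

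Of 30 transcription factors of macrophages and OCs, 20 had a promoter-proximal peak at OC. This share of 66.7% (48.8 to 80.8) stands against 37.9% of all protein-coding genes. The gene of PU.1 itself, listed as Sfpi1, had scores of 93.8, 110.9 and 101.3. Nfkb1 was highest with 189.3, 174.4 and 174.7, and Tcfec, a MITF family member, had 170.6, 141.9 and 124.8. The other members were Tcfeb (87.0, 78.3 and 95.4), Tcfe3 (42.6, 59.1 and 57.3) and Mitf (18.8, 17.7 and 22.0). Irf8, which restrains OC formation, had 87.0, 73.9 and 101.3, Runx1 had 85.3, 62.1 and 80.8, and Irf5 had 63.1, 42.9 and 61.7. Other NF-κB genes had lower scores, with Nfkb2 at 42.6, 48.8 and 49.9, Rela at 42.6, 39.9 and 47.0 and Relb at 49.5, 51.7 and 39.6.

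Among the other factors no pair passed the test between MP and a later time. Fos had 25.6 at MP, 51.7 at 36 h and 45.5 at OC, and Junb had 32.4, 56.2 and 57.3. Egr1 had no peak at MP and 10.3 and 25.0 later, and Klf4 had none at MP and 16.3 and 22.0 later. Egr2 had 17.1, 20.7 and 20.6, and Id2 had 44.4, 56.2 and 48.5. Prdm1, a repressor, had 15.4, 25.1 and 10.3, and Cebpb had 15.4, 11.8 and 13.2. Maf had a peak at 36 h only (11.8), and Fosl2 and Jund at MP only (both 10.2). Nfatc1, the main factor of the RANKL response, had no promoter-proximal peak at any time and 17 PU.1 peaks farther out at OC. Cebpa, Irf4, Jun, Bcl6 and Myc likewise had none within 1 kb and 10 to 17 farther out.

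Of lysosomal genes 32, 31 and 37 of 42 had a promoter-proximal peak at MP, 36 h and OC. Of all protein-coding genes 35.3%, 37.15% and 37.9% had one at these times. Sgsh, a sulfamidase, had scores of 221.8, 149.3 and 183.6, Gusb, a glucuronidase, had 187.6, 204.0 and 179.1, and Ctss, cathepsin S, had 192.8, 187.7 and 171.8. Lamp1, Ctsl and Glb1 had a peak at OC only, with scores of 39.6, 11.7 and 11.7. Of the vacuolar proton pump, 12, 14 and 12 of 24 genes had a peak at MP, 36 h and OC. The OC share was 50.0% with an interval of 31.4 to 68.6, which includes that of all genes. Atp6v0c (211.5, 161.1 and 165.9), Atp6v1a (76.8, 106.4 and 89.6) and Atp6v0b (58.0, 57.6 and 61.7) were highest there. The highest peak of Atp6v0a1 scored 90.4 at MP and 19.2 and 17.6 later. At 36 h and OC, peaks of 119.7 and 113.1 lay 491 and 493 bp from its MP peak, beyond the 1 kb window.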

How the data were processed

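PU.1 and MITF ChIP-Seq libraries from MPs, 36 h cells and OCs and an IgG library from MPs were used, 7 in all and 1 per condition, grouped by their labels. The authors sequenced the libraries, mapped reads to mm9 with Bowtie2 and called peaks with HOMER. Per the labels CASAVA 1.8 was also used. Peak calling settings are not given in the sources used here. The deposited lists give the position of each peak and, as its signal, the tag number scaled to a common library size. The worth of 1 tag was recovered from the steps between scores, and dividing by it gave tag numbers whole within 0.05. If the scale is 10000000 tags, HOMER's default, the PU.1 libraries held 5860000, 6770000 and 6810000 tags. One peak of the PU.1 36 h list reached beyond the end of its chromosome.

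TSSs came from GENCODE vM1 on the NCBIM37 genome, which is mm9, and a peak was promoter-proximal when its centre lay within 1000 bp of any TSS of a protein-coding gene. Matched peaks have 1 bp or more in common. Shares have 95% Wilson intervals, their differences Newcombe intervals, and odds ratios are Mantel-Haenszel estimates over up to 10 classes of tag number or 5 of GC content. Motifs were searched within 75 bp of the centre. Tags of overlapping peaks were compared by an exact binomial test with Benjamini-Hochberg adjustment over all pairs. On simulated tags with 200 pairs changed 4-fold, 115 were called between MP and OC, 78 of 98 among those with a mean of 20 tags or more, and 3 unchanged pairs were called. Changes nearer the 2-fold limit were not simulated. Simulated tags could also fall below the 6 or 7 tags that a listed PU.1 peak held at least. No replicate spread enters these values.

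Members, gene lists and motifs were chosen with earlier results of these data known. Genes named are the 5 highest peaks of each PU.1 list, the 5 largest and smallest OC to MP ratios, the 3 highest loci of each presence pattern, the 5 highest MITF OC scores, all genes of OC function and of the myeloid factors, and the 3 highest of other classes at OC. Some genes that the rule selects are not reported here. Genes beyond this rule are examples picked after their values were seen. Symbols are those of the annotation, and 5 list entries were matched through RefSeq synonyms. The authors' nearest-gene columns were not used. Python 3.11.15 with numpy 2.4.6, pandas 2.3.3, scipy 1.17.1 and matplotlib 3.10.9 was used.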

Additional observations from a re-analysis of the deposited data

How the results depend on the processing

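No paired analysis was possible because each condition had 1 library. Depth limits the low peaks, whose smallest members held 6 or 7 tags. Of 235 values recomputed under alternatives, 162 kept their direction and their side of the limit or stayed within counting error. Keeping only peaks with 2 times the minimum score of each list or more gave promoter-proximal shares of 12.5% (MP) and 13.73% (OC), ratios of the median score to that of farther peaks of 0.883, 0.928 and 0.897 (MP, 36 h, OC), 57.0% of promoter-proximal loci called at all 3 times, an odds ratio from 36 h to OC of 0.893, and 6 in place of 2 promoter-proximal pairs past the limits from MP to OC. It lowered the OC share of genes with a peak to 23.7% for all genes, 64.3% for lysosome, 53.0% for ribosomal proteins, 35.8% for oxidative phosphorylation, 48.7% for proteasome, 37.1% for splicing, 48.65% for replication, 0.828% for olfactory receptors, 1.04% for keratins, 4.55% for neuronal receptors and 18.2% for T and NK cells. With MITF cut likewise, MITF overlap fell to 1.95% (MP) and 1.32% (OC) and the OC odds ratio was 0.834. A window of 500 bp gave shares of 8.85%, 9.85% and 9.84%, with 71.4% of lysosomal and 30.6% of all genes at OC. Using only protein-coding transcripts gave 11.4%, 12.3% and 12.3%, and only the outermost start of each gene 9.21%, 10.1% and 10.1%. A reciprocal overlap of 50% gave odds ratios of 0.938 from 36 h to OC and 1.04 from OC to 36 h. MITF lists of equal length gave 3.34% (MP) and 2.94% (OC). Of alternatives chosen after seeing the data, centres within 500 bp gave an odds ratio from 36 h to OC of 1.22 and 58.4% of promoter-proximal loci at all 3 times, and classes of tags and CpG together gave 1.01 from OC to 36 h. In the other cases the direction and the side of the limit were kept or the move concerned a class at MP or 36 h.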

Other observations

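Promoters of genes outside the myeloid classes also held tall PU.1 peaks. E2f1, a cell cycle regulator, had promoter-proximal scores of 261.0, 254.2 and 251.1 at MP, 36 h and OC and a MITF peak at each time. Rb1, the retinoblastoma gene that binds E2F factors, had 121.1, 85.7 and 130.7. Of 37 genes of replication and the cell cycle 28 had a promoter-proximal peak at OC, or 75.7% against 37.9% of all protein-coding genes. Among them was Cdk1 with 71.6, 66.5 and 92.5. Of T and NK cell genes, Cd28 (143.3, 112.3 and 116.0), Klrb1c (83.6, 51.7 and 79.3) and Cd5 (78.5, 84.3 and 61.7) had peaks in all lists, while Cd3e, Cd4, Cd8a, Gzma and Prf1 had none within 1 kb in any.

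Of interferon-induced genes 15 of 24 had a promoter-proximal peak at OC, or 62.5% (42.7 to 78.8) against 37.9% of all protein-coding genes. Oas3 (116.0, 140.4 and 139.5), Dhx58 (165.5, 116.8 and 127.8) and Oasl2 (121.1, 122.7 and 123.3) were highest there, and Isg15, Mx1 and Usp18 had none in any list. Of 19 chemokine receptors 7 had a peak at OC, or 36.8% against 37.9% of all protein-coding genes, with Cx3cr1 highest at 117.7, 102.0 and 121.9, and Ccr2, Cxcr4 and Ccr7 had none. Among genes of neurons Grik4, a glutamate receptor, had 39.2, 42.9 and 27.9. Of oxidative phosphorylation genes 46 of 81 and of splicing factors 24 of 35 had a promoter-proximal peak at OC, with a median highest score of 27.9 and 23.5. These shares were 56.8% (45.9 to 67.0) and 68.6% (52.0 to 81.45), against the same 37.9%.

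A few promoters of gene families that are silent in most tissues held tall peaks. Olfr1509 had scores of 221.8, 116.8 and 157.1, Olfr110 had 153.5, 128.6 and 133.6, and Olfr67 had 141.6, 91.6 and 107.2, against a median highest OC score of 22.0 over the 17 olfactory receptor genes with a peak. All 3 overlapped a MITF peak at MP, and Olfr110 and Olfr67 did so at OC as well. The tallest keratin-associated promoter at OC, Krtap5-4, had 18.8, 23.7 and 25.0.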
